A study of Mus musculus with 384 samples.

Results

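Accessible chromatin was described at 9 genes of the hormone-sensing luminal lineage of the mammary gland, namely Esr1, Pgr, Foxa1, Gata3, Tbx3, Tfap2c, Spdef, Xbp1 and Areg. The genes were chosen by name, and their windows were those centred within 50 kb of any annotated start site or inside the gene body. These numbered 30 of the 50000 windows in the list (0.06%), with 20 inside the member's own gene and 10 outside it. The rule could also be read as asking for both, which gives those 20 in place of 30. A window centred within 1 kb of one of a gene's own start sites was called its promoter window.

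The windows came from 1 breast tumor of the MMTV-PyMT mouse, in which a mammary-active viral promoter drives the polyoma middle T oncogene in the gland's epithelium. Cells of the tumor were fixed, stained for the epithelial surface protein EpCAM and the leukocyte protein CD45, and measured by Pi-ATAC, in which a transposase tags open chromatin in the stained cells together before each cell is sorted into a well of its own. The study shows a sort gate that collected EpCAM+ and CD45+ cells, while its methods describe index sorting with no selection by stain. All 384 wells, on 4 plates of 96, formed 1 group with the same genotype, tissue and stains, from a mouse killed at an age of 3 months. The authors called 500-bp windows in mouse build mm9 after aggregating the cells and gave them as 1 list, without scores, counts or a link to wells, so there was no replicate, no depth per window and no test between groups. For any window below, EpCAM+ cells and CD45+ cells cannot be told apart as its source. Cells with neither protein would be removed by such a gate, and the study counted the cells that passed its filter as EpCAM+ or CD45+.

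Luminal hormone-sensing cells of the mammary duct carry the estrogen receptor, encoded by Esr1, and the progesterone receptor, encoded by Pgr, which is itself induced by estrogen. FOXA1 opens chromatin ahead of the estrogen receptor, GATA3 maintains luminal identity, and TBX3 and the AP-2 gamma factor TFAP2C act in the development and hormone response of the same cells. SPDEF is an Ets factor of secretory epithelium, XBP1 runs the secretory and unfolded-protein response, and AREG is the EGF-family ligand through which estrogen-stimulated cells signal to their neighbors. Several of these genes have known roles outside the epithelium too, since GATA3 directs T cell and type 2 innate lymphoid cell fate, XBP1 is needed by plasma cells, and AREG is also made by regulatory T cells and type 2 lymphoid cells.

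Sequences are given from the mm9 genome on its plus strand, 5′ to 3′, with the matched word in capitals. The first set shows the 7-base AP-1 word TGACTCA, bound by JUN and FOS dimers. It was chosen because it was found at 5 members, against 3 for the RUNX word and 2 for the forkhead word. No other word searched had 7 bases. The shorter TEAD (GGAATG) and nuclear-receptor (AGGTCA) words were at 5 members too. Windows holding TGACTCA made up 23.3% of member windows and 13.5% of all windows. In the central 200 bp the shares were 6.67% and 6.66%, and more than 1 kb from any start site 31.6% and 15.6%. Of its 7 sites, each in a different window, 6 are printed with 30 bases on either side. The seventh, in a Spdef window at chr17:27904708-27904714, lay in an untranslated region of the neighboring gene D17Wsu92e.
Esr1 chr10:5636753-5636819: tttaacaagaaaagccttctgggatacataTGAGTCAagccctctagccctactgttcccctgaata
Esr1 chr10:5725479-5725545: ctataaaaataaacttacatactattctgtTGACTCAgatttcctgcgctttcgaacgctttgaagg
Gata3 chr2:9756832-9756898: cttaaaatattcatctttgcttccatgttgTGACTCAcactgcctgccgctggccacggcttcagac
Gata3 chr2:9801350-9801416: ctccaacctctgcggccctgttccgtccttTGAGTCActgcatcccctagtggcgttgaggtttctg
Tfap2c chr2:172381388-172381454: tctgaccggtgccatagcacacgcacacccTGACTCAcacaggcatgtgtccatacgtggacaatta
Areg chr5:91574265-91574331: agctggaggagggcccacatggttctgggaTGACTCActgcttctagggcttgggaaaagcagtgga

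All but the first Gata3 stretch lay inside the member's gene. The second set shows the forkhead word TGTTTAC, which reads GTAAACA on the other strand and is the kind of word that FOXA1 and its relatives bind. Its 6 sites fell in 5 windows (16.7%) at 2 of the 9 members, Gata3 and Xbp1, against 5.97% of all windows. None was at Foxa1 or Esr1, which had 1 and 6 windows, and Pgr and Tbx3 had no window to search. With so few windows and so rare a word, these absences show no pattern. Of the 5 windows with the word, only that at chr2:9808540-9809039 had a member, Gata3, as its nearest protein-coding gene. The other Gata3 window was nearest to 4930412O13Rik, and the 3 Xbp1 windows lay outside the gene, with 2 nearest to Znrf3 and 1 to Ccdc117.
Gata3 chr2:9804065-9804131: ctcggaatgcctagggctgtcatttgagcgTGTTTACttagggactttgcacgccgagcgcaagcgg
Gata3 chr2:9808617-9808683: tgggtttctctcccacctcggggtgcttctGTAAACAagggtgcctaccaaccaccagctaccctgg
Gata3 chr2:9808767-9808833: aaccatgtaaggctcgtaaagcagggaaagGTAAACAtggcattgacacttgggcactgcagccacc
Xbp1 chr11:5371676-5371742: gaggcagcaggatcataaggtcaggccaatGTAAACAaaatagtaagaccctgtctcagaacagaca
Xbp1 chr11:5375646-5375712: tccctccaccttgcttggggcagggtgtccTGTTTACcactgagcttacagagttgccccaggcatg
Xbp1 chr11:5442520-5442586: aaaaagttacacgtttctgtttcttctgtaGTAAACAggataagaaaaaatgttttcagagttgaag

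The third set shows longer stretches of windows that held several words, each placed where its window had most complete words. In the Esr1 window at the internal start site, capitals mark, in order, overlapping TEAD (GGAATG) and STAT (TTCNNNGAA) words, then 1 word each for RUNX, GATA and AP-1 factors. In the Gata3 promoter window they mark 3 AP-2 words (GCCNNNGGC), in the Tfap2c window downstream of the gene 3 single nuclear-receptor words (AGGTCA), and in the Areg intron a receptor word, the AP-1 word and 2 GATA words.
Esr1 chr10:5636490-5636789: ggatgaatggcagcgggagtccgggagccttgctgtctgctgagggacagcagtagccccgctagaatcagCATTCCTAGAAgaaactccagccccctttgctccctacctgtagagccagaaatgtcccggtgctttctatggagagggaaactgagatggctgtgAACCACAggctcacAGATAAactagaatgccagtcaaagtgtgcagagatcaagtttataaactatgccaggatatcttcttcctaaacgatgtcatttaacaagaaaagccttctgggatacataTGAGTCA
Gata3 chr2:9800278-9800577: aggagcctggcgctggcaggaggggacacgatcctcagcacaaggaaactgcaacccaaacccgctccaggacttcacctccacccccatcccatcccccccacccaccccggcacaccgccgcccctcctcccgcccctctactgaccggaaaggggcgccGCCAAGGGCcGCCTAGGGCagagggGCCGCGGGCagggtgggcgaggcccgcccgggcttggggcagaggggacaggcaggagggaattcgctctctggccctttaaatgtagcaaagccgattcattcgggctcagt
Tfap2c chr2:172415489-172415788: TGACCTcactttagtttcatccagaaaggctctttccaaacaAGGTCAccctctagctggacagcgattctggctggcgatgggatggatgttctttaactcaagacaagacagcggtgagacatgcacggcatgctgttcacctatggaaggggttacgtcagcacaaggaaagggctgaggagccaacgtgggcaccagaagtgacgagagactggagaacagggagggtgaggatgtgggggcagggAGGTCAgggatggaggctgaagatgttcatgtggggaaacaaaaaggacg
Areg chr5:91574151-91574450: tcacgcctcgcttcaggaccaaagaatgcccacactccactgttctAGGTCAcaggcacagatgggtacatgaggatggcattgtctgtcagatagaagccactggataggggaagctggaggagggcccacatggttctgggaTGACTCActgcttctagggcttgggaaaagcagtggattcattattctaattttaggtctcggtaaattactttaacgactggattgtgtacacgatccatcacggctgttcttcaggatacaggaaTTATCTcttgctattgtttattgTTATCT

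A promoter window was present at 4 of the 9 members, Esr1, Gata3, Spdef and Xbp1 (44.4%). The same was true of 9718 of 22350 protein-coding genes (43.5%), so the members' share was near the background. At least 1 window within 50 kb was found at 7 members, against 84.6% of protein-coding genes, and Pgr and Tbx3 had none. The median was 3 windows within 50 kb for the members and 3 for all protein-coding genes, and the means were 3.33 and 4.1. Counts per gene ran from 0 to 10 among the members and from 0 to 52 among protein-coding genes. The backgrounds over protein-coding genes, here and for each member below, include chromosomes 7, 8, 9 and X, where Pgr is the only member. There 41.5% to 51.8% of the running numbers in the peak names were in the list, against 23.6% to 26.5% on the other chromosomes. No background without these chromosomes was counted, so the shares are not like for like.

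**Figure D1:**
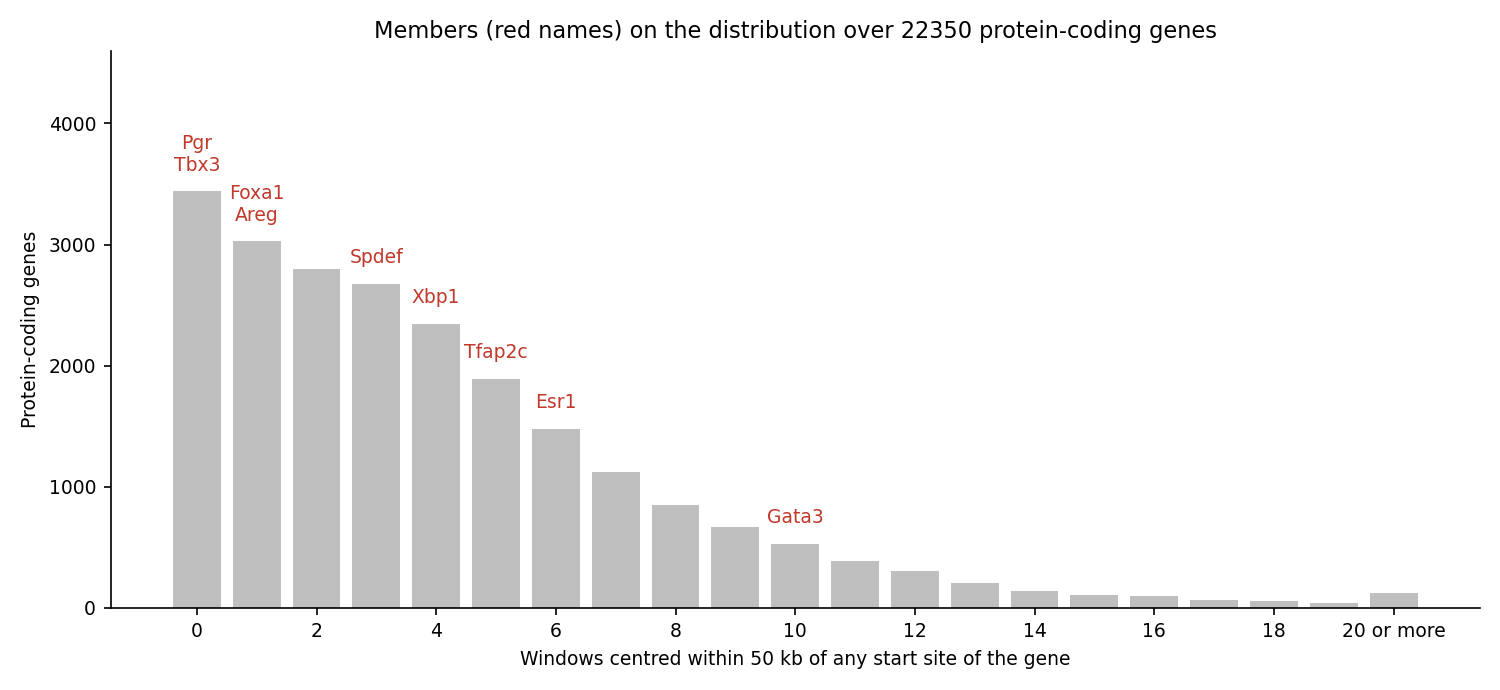
Number of protein-coding genes (vertical axis) by the number of windows centred within 50 kb of a start site (horizontal axis, with 20 or more pooled in the last bar). Names in red stand above the bar of each member's count, from 0 at Pgr and Tbx3 to 10 at Gata3.

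Only 2 of these 4 members, Gata3 and Xbp1, still had a promoter window when a gene was reduced to its 5′-most start site, and by that measure 39.4% of protein-coding genes had one. This choice was added after the values had been seen. At Esr1 and Spdef the promoter window lay at an internal start site, far from the start of the full-length gene.

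**Figure D2:**
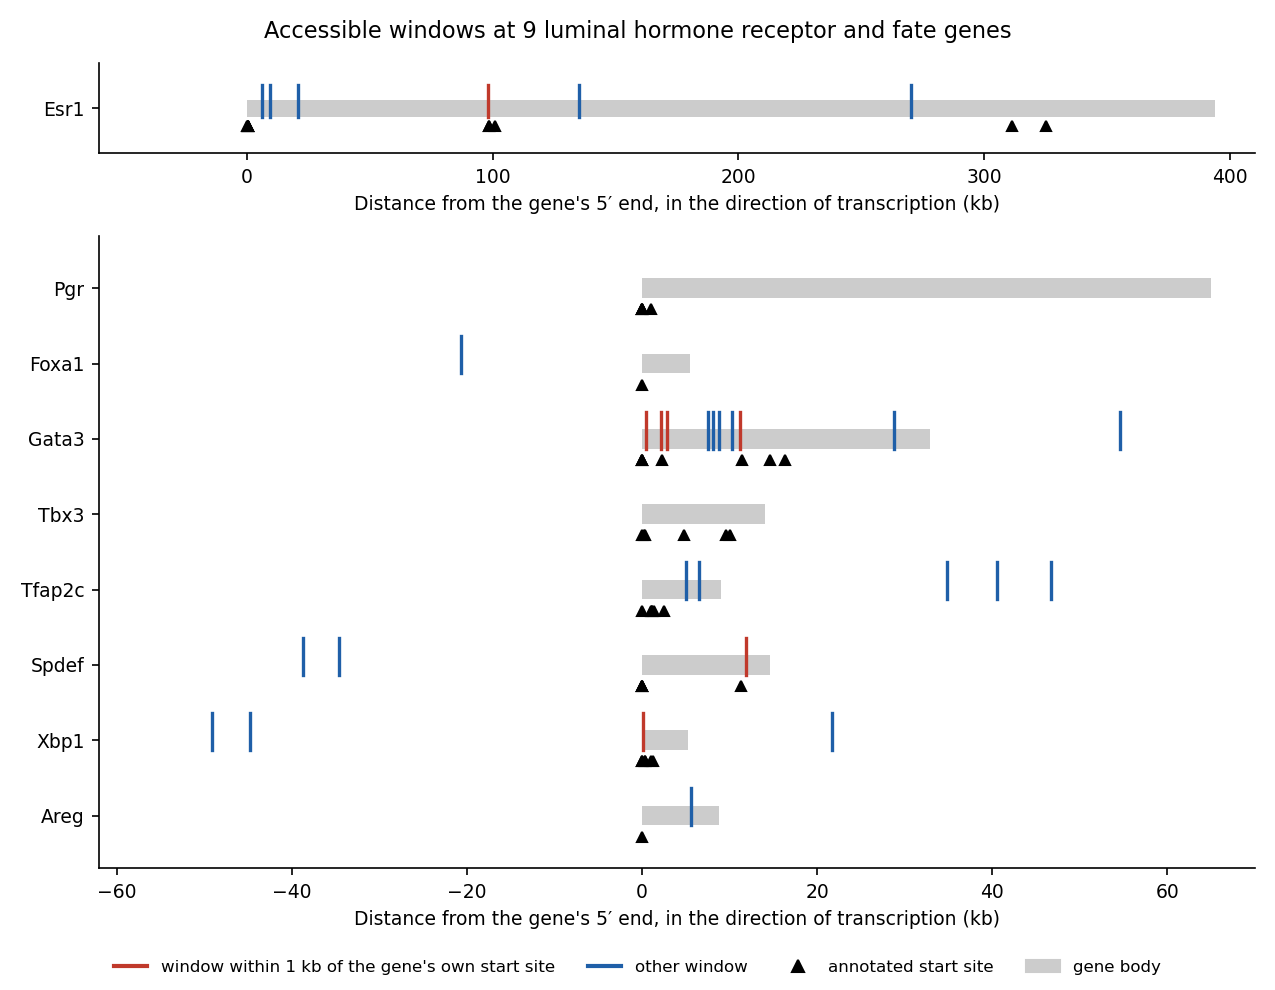
Windows (vertical lines) at each member by distance from the 5′ end of the gene in kb, positive in the direction of transcription, with gene bodies in grey and annotated start sites as triangles, and Esr1 on its own scale. Red lines are the 7 windows within 1 kb of the gene's own start sites, 4 of them at Gata3, and Pgr and Tbx3 have no line.

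Esr1, the estrogen receptor gene (chr10:5340927-5734948, minus strand, 394.022 kb), had 6 windows, all inside the gene. As many or more windows within 50 kb were found at 27.6% of protein-coding genes, and as many inside the gene at 4.16%, a count that longer genes have more room for. The count within 50 kb was also taken around 10 start sites spread along the gene. Around the 5′-most start site alone, a choice added after the values had been seen, it was 3. Its promoter window, at chr10:5636390-5636889, was centred 254 bp upstream of an internal start site shared by 2 protein-coding transcripts and 98308 bp inside the gene. The start sites of the other protein-coding transcripts cluster at the 5′ end, and the nearest window was centred 5736 bp downstream of the closest of them. That window, chr10:5728509-5729008, and a pair at 9156 and 20286 bp from the same start site (chr10:5725089-5725588 and chr10:5713959-5714458) were intronic. The window at chr10:5599572-5600071 overlapped coding and untranslated exon sequence, and the one at chr10:5464327-5464826 lay in an intron 270371 bp from the 5′ end. Of the 6 Esr1 windows, 5 were therefore more than 1 kb from any annotated start site.

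Pgr, the progesterone receptor gene (chr9:8900419-8965425, plus strand), had no window inside the gene or within 50 kb. The nearest, chr9:8815893-8816392, was centred 84276 bp upstream. None of the 4 distinct start sites had a window, although Pgr lies on a chromosome where a larger part of the running peak numbers was in the list (50.6%, against 24.0% to 25.6% on the chromosomes of the other members).

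Foxa1, the forkhead pioneer gene (chr12:58641618-58647108, minus strand), had 1 window, at chr12:58667468-58667967 and 20610 bp upstream of its only start site. It lay in an intron of the neighboring gene Ttc6, whose start site was nearer at 2618 bp. No window lay in Foxa1 or within 10 kb of it.

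Gata3 was the member with most windows. The gene (chr2:9778705-9811661, minus strand, 32.957 kb) had 10 within 50 kb, a count reached by 9.2% of protein-coding genes. It had 9 inside the gene, reached by 1.76%, and 8 within 10 kb of a start site, reached by 0.85%. A group of 8 stood between positions 9800178 and 9811435 of chromosome 2, across the 5′ part of the gene. The Gata3 promoter windows were chr2:9810936-9811435, 475 bp inside the gene's 5′ end, chr2:9809220-9809719 and chr2:9808540-9809039, centred 59 and 621 bp from the start of a processed transcript, and chr2:9800178-9800677, centred 201 bp upstream of the start of a shorter protein-coding transcript. The last came from a called peak with 2 summits, and its partner at chr2:9801101-9801600 was 1124 bp upstream of the same start. Of the others in the group, 3 (chr2:9802599-9803098, chr2:9803265-9803764 and chr2:9803890-9804389) were within 1 kb of start sites of 4930412O13Rik, a protein-coding gene on the opposite strand inside Gata3. The window at the gene's 5′ end was also 19 bp from a start of 9230102O04Rik, so these positions cannot be assigned to 1 promoter. The remaining windows were intronic, at chr2:9782662-9783161, and intergenic beyond the 3′ end, at chr2:9756857-9757356.

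Tbx3, a T-box repressor of the luminal lineage (chr5:120120678-120134733, plus strand), had none within 50 kb of its 6 start sites. The nearest was chr5:120065124-120065623, centred 55304 bp upstream.

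Tfap2c, the AP-2 gamma gene (given as Tcfap2c in the annotation, chr2:172375093-172384122, plus strand), had 5 windows and no promoter window. As many or more were found at 36.1% of protein-coding genes. An intronic window at chr2:172379901-172380400 and one over coding exon sequence at chr2:172381378-172381877 were inside the gene, at 5058 and 6535 bp from its 5′ end. The other 3 stood downstream in intergenic sequence (chr2:172409647-172410146, chr2:172415392-172415891 and chr2:172421612-172422111), at 34804, 40549 and 46769 bp from the 5′ end, and Tfap2c had the nearest protein-coding start site to each.

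Spdef, the Ets factor gene (chr17:27851297-27865896, minus strand), had 3 windows. Its promoter window at chr17:27853737-27854236 overlapped coding sequence in the 3′ part of the gene, 540 bp inside a processed transcript and 11909 bp from the 5′-most start site. With start sites taken from protein-coding transcripts only, Spdef had no promoter window. The other 2 lay 34652 and 38715 bp upstream, in an intron and an exon of D17Wsu92e (chr17:27900298-27900797 and chr17:27904361-27904860).

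Xbp1, the regulator of secretory capacity (chr11:5420662-5425896, plus strand), had 4 windows, and 46.6% of protein-coding genes had as many or more. Its promoter window at chr11:5420501-5421000 was centred 89 bp inside the gene's 5′ end, over untranslated and coding exon sequence, and lay within 1 kb of 5 of the 6 start sites. The others were intergenic at 49091 and 44798 bp upstream (chr11:5371321-5371820 and chr11:5375614-5376113), where Znrf3, which encodes a ligase that removes Wnt receptors, had the nearer start site, and at the start of Ccdc117, 183 bp away (chr11:5442123-5442622). Xbp1 and Gata3 were the members with a listed window within 1 kb of the 5′ end.

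Areg, the amphiregulin gene (chr5:91568641-91577458, plus strand), had 1 window, at chr5:91573954-91574453 in an intron and 5563 bp inside the gene. Its only start site had none within 1 kb. Among the other EGF-family ligands, its chromosome 5 neighbors Ereg, Btc and Epgn had 3, 2 and 2 windows within 50 kb, and of these Btc had a promoter window.

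Member windows were spread over gene parts much like other windows near genes. By centre, 11 of 30 were within 1 kb of a start site of any gene (36.7%), 3 in exons (10%), 10 in introns (33.3%) and 6 intergenic (20%). Among 37430 windows within 50 kb of a protein-coding start site, the shares were 35% promoter, 4.48% exon, 35.6% intron and 25% intergenic. Of the 11 member windows at a start site, 7 were at the member's own and 5 at a neighbor's, with 1 at both. Coding sequence of the member's own gene was overlapped by 4 member windows, and coding sequence of other genes was not counted. The median GC content was 52.5% in member windows and 49.8% in all windows, and the median number of CpG dinucleotides 10.5 and 7.

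A promoter window was listed more often at CpG-rich genes, and the members did not follow that order. The CpG dinucleotides in the 500 bp around the 5′-most start site were counted, and protein-coding genes were put in 10 classes of equal size. The percent with a promoter window was 5.06% in class 1, 38.8% in class 5 and 72.4% in class 9. Among the members with a promoter window, Esr1 was in class 3 with 8 CpG (16.9% of its class had one), Spdef in class 4 with 11 (25%), Gata3 in class 5 with 19 (38.8%) and Xbp1 in class 6 with 27 (60.7%). Members without one were in classes 6 to 10, namely Pgr with 26 CpG (60.7%), Areg with 46 (70.3%), Tbx3 with 47 and Tfap2c with 49 (72.4% for both) and Foxa1 with 61 (67.4%). The 4 most CpG-rich members therefore lacked a promoter window, in classes where 67.4% to 72.4% of protein-coding genes had one. The promoter windows of Esr1 and Spdef were at other start sites than the ones counted here, and the class percents likewise count a window at any start site. The order among these 9 genes was not tested.

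**Figure D3:**
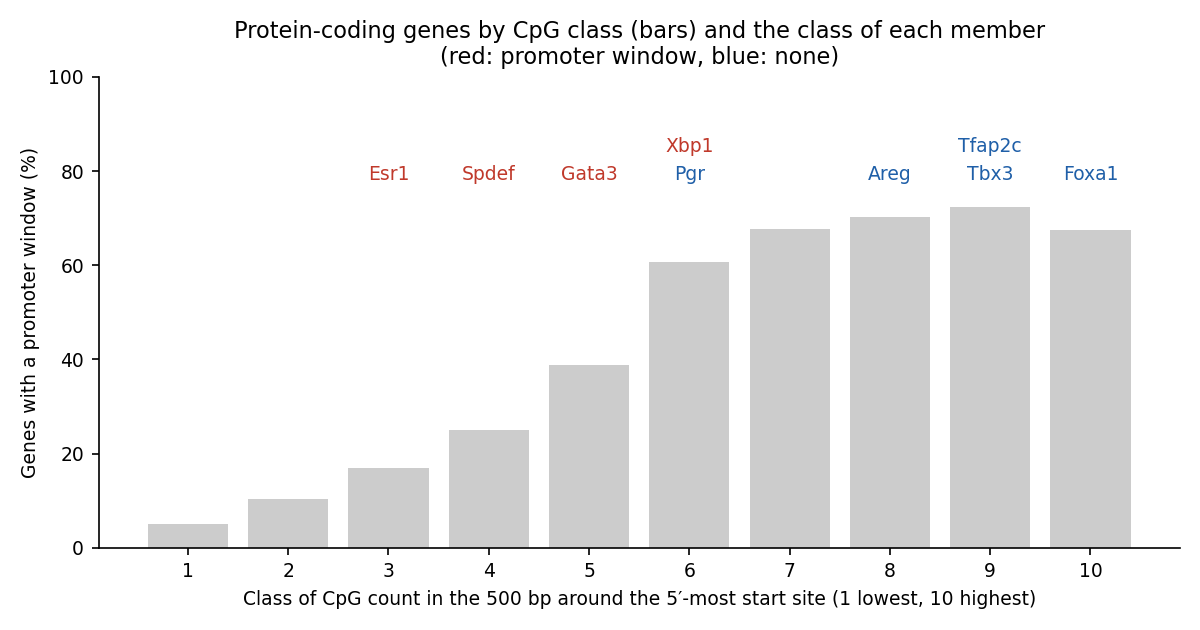
Percent of protein-coding genes with a promoter window (bars, vertical axis) in 10 classes of CpG count around the 5′-most start site (horizontal axis), with each member's name above its class. Names in red (Esr1, Spdef, Gata3, Xbp1) had a promoter window and stand in classes 3 to 6, and names in blue had none and stand in classes 6 to 10.

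Peak names carried a running number, and numbers passed over were read as called peaks that did not enter the list. Why they are missing was not tested. The share of numbers in the list was 41.5% to 51.8% on chromosomes 7, 8, 9 and X, against 23.6% to 26.5% on the others. Why the chromosomes differ was not tested. Between the listed windows that flank the 9 loci, 189 numbers were spanned and 29 were in the list (15.3%), against 23.5% summed in the same way over 22185 protein-coding genes, whose stretches overlap. These shares are not like for like. The background includes genes on chromosomes 7, 8, 9 and X, where Pgr is the only member. Each stretch also ends at listed windows, so a locus without a listed window has no listed number by construction. Read in this way, the members without a promoter window had called peaks in their flanked stretches that were not listed, at positions the list does not give. This is not particular to them, since 304463 of 398072 numbers were passed over around protein-coding genes. Around Tbx3, 20 numbers were passed over and none was listed in 218.5 kb. At Foxa1, 27 of 28 were passed over in 778.863 kb. At Pgr the stretch of 187.221 kb spanned 4 numbers, all passed over, and at Areg 5 of 6 were passed over in 185.317 kb. At Esr1 6 of 33 numbers were listed, at Gata3 9 of 35, at Tfap2c 5 of 28, at Xbp1 4 of 15 and at Spdef 3 of 20. The Gata3 stretch thus spanned the most numbers of the 9.

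**Figure D4:**
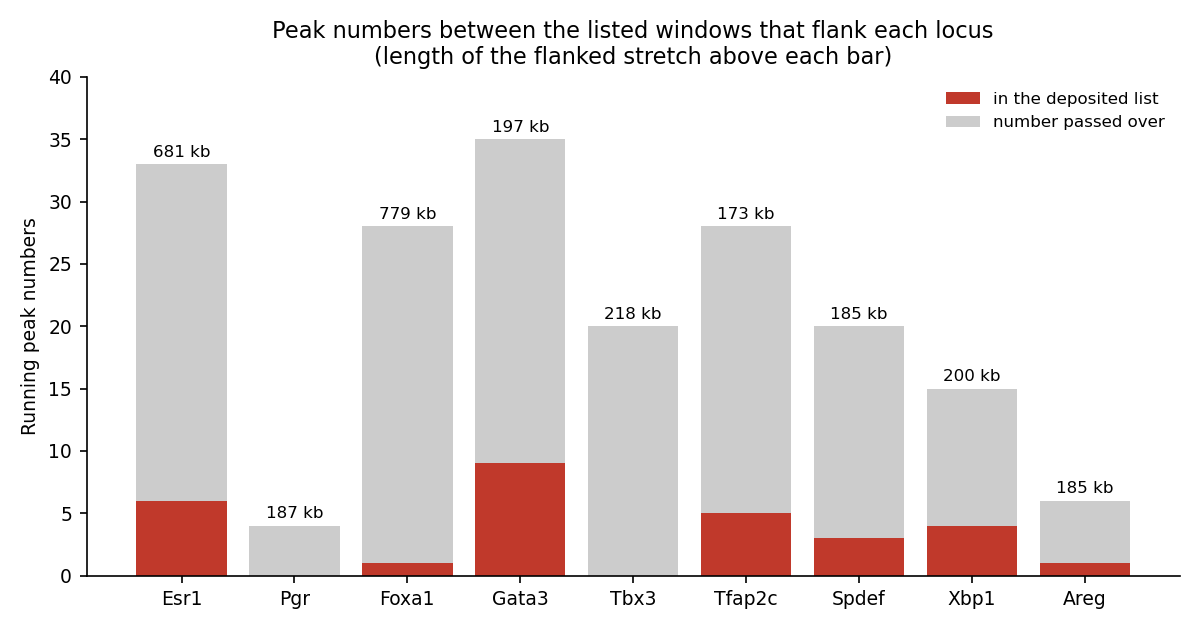
Running peak numbers (vertical axis) between the listed windows that flank each member's locus (horizontal axis), split into those in the list (red) and those passed over (grey), with the length of the stretch above each bar. Gata3 has 9 of 35 in the list, and Tbx3 has 0 of 20.

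A set of 17 factor words was searched on both strands of the windows, including those of the members' own proteins. Some factor families, such as Ets, had more than 1 word. A match is a description of the letters and not a binding site. Forkhead words were in 5 of the 30 member windows (16.7%, exact 95% interval 5.64% to 34.7%), against 5.97% of all windows. More than 1 kb from any start site the share was 2 of 19 member windows (10.5%), against 6.56%, and in the central 200 bp it was 2 of 30 (6.67%), against 2.27%. AP-1 words were in 7 (23.3%, 9.93% to 42.3%), against 13.5%. More than 1 kb from any start site they were in 6 of 19 (31.6%), against 15.6%, and in the central 200 bp in 2 of 30 (6.67%), against 6.66%. The intervals cover counting error only, and windows of 1 gene are not independent, so no difference was tested. By member over the whole windows, AP-1 words were in 2 windows of Esr1, 2 of Gata3 and 1 each of Spdef, Areg and Tfap2c, whereas forkhead words were in 3 of 4 Xbp1 windows and 2 of 10 Gata3 windows. No member window had both.

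The single nuclear-receptor word (AGGTCA), which many receptors beside the estrogen receptor recognize, was in 10 member windows (33.3%), against 27.95% of all windows. It occurred at Gata3, Xbp1, Spdef, Areg and Tfap2c and in no window of Esr1. The full estrogen receptor element, an inverted pair of GGTCA with 3 bases of any kind between, was in none, against 0.09% of all windows, and the element of the progesterone, androgen and glucocorticoid receptors (an inverted pair of GNACA with the same spacing) was in none, against 0.87%. AP-2 words, the kind that TFAP2C binds, were in 7 member windows (23.3%), against 19.4%, with 12 sites in all. Words of GATA factors, spelled AGATAA, were in 4 (13.3%), against 17.7%, at Esr1, Areg and Tfap2c and not at Gata3. The Ets word preferred by SPDEF (CCGGAT) was in 2 (6.67%), against 7.04%, at Gata3 and at the Xbp1 promoter.

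TEAD words were in 8 member windows (26.7%), against 24.3%, NFI words (TTGGCA) in 8 (26.7%), against 23.6%, STAT words in 4 (13.3%), against 13.1%, and the RUNX word, spelled TGTGGTT, in 4 (13.3%), against 11.6%. None held the T-box word AGGTGTGA (2.53% of all windows), the XBP1 word TGACGTGG (0.886%), the general Ets word CCGGAAGT (2.49%), the PU.1 word GAGGAAGT (4.96%) or the Grainyhead word AACCGGTT (0.212%), and 0 of 30 allows a share of up to 11.6% by the exact interval. Overlaps between sites of different words were few, with TEAD and STAT sharing 4 bases and NFI and TEAD sharing 2 in the Esr1 promoter window, and TEAD and AP-2 sharing 1 at Gata3.

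**Figure D5:**
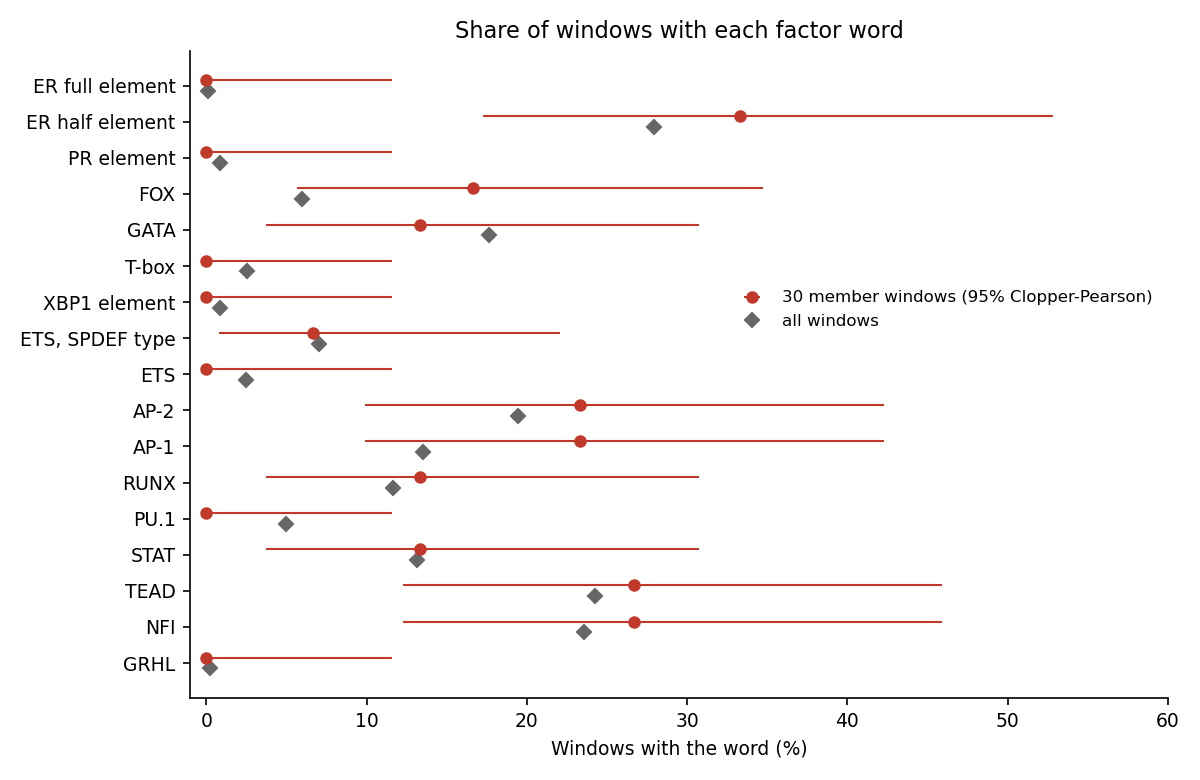
Percent of windows with each word (horizontal axis) in the 30 member windows (red points, bars for exact 95% intervals) and in all windows (grey diamonds). Each diamond lies within the bar of its word, and that of the forkhead word, at 5.97%, lies close to the lower bound of 5.64%.

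Other genes of the hormone pathway were counted in the same way. Of 20 such genes, 10 had a promoter window (50%), with a median of 3 windows within 50 kb, against 43.5% and a median of 3 over all protein-coding genes. Rara, a retinoic acid receptor, had 14 windows with 4 of them at its start sites, and the coactivator genes Ncoa2 and Ncoa3 had 13 and 8. Calca, which encodes calcitonin peptides, had none. Of 24 relatives of the members by gene family, 8 had a promoter window (33.3%) with a median of 2. Foxa3 had 11 on chromosome 7, Hbegf, Nr3c2 and Tfap2a had 5 each, and Gata6 had none. Foxa2 and Tbx2, relatives of Foxa1 and Tbx3, had 1 and 2 and no promoter window, and Esr2, the second estrogen receptor gene, had 2.

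Markers of the cell types such a suspension could hold stood beside these counts, and their part in the member windows was not tested. Over all protein-coding genes, 43.5% had a promoter window and the median was 3 windows within 50 kb. Genes of the same list that lie within reach of the same window each count it. Genes of luminal epithelium had a promoter window in 3 of 10 cases with a median of 6 windows, led by Muc1 (18), Cdh1 (12), Epcam (9) and Cldn7 (8), and each of the 10 genes had at least 2. Luminal progenitor and alveolar genes had 6 of 12 and a median of 4.5, with 16 at Ltf, 9 at Aldh1a3, 9 at Cd14 and 7 at Notch1 and none at Ehf and Tspan8. Basal and myoepithelial genes had 3 of 12 and a median of 3, with 12 at Cnn1, 7 each at Mylk and Tagln and 5 at Acta2, and none at Myh11, Oxtr and Snai2. T cell and type 2 immunity genes, in which GATA3 also acts, had 5 of 17 and a median of 5, with 9 at Cd3e and 8 each at the neighboring Cd3d and Cd3g and at Il5. B and plasma cell genes had 4 of 10 and a median of 3, with 10 at Prdm1, 7 each at Cd79a and Sdc1 and none at Ms4a1. Myeloid genes had 4 of 10 and a median of 2.5, with 24 at Irf8, 14 at Cebpb, 11 at Spi1 and 4 at Itgam. Genes of stroma and endothelium, cells that a gate on EpCAM or CD45 would remove if applied, had 4 of 10 and a median of 3, with 8 at Pecam1, 7 at Cdh5, 4 at Col1a1 and 3 at Dcn. Of these, Ltf, Cnn1, Tagln, the Cd3 genes, Aldh1a3, Cd79a, Itgam, Cdh1, Irf8 and Cdh5 lie on chromosomes 7, 8 and 9, where a larger part of the running peak numbers was in the list.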

How the data were processed

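Single cells of 1 tumor were measured by Pi-ATAC, and the authors deposited 1 list of windows for all wells. Its values are of unit other, namely positions and peak names without a score. By the methods and labels, the authors used Bowtie2 2.1.0 for alignment to mm9 and Picard 1.79 for duplicate removal, called summits with MACS2 at q 0.05 on aggregated cells, widened them to 500 bp and kept the 50000 with the lowest q. Depth per well or window was therefore not known.

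Windows were placed by centre on GENCODE vM1 and the NCBIM37 genome, which is mm9, counting from 1, and backgrounds came from protein-coding genes of chromosomes 1 to 19 and X. Printed sequences were read from that genome. Python 3.11.15 was used with numpy 2.4.6, pandas 2.3.3, scipy 1.17.1 (Clopper-Pearson intervals, counting error only) and matplotlib 3.10.9, and counting was tested on simulated windows and words. Of 125 list entries (123 genes in 9 lists), 117 were found under their own symbol and 8 under an older one, as was 1 member. Members and lists were chosen with earlier results of these data known. Named genes are the members, genes nearest to or within 1 kb of a member window, and in each list the 4 with most windows and those without any, some of which are not reported here. Foxa2, Tbx2, Esr2, Ereg, Btc and Epgn were named after their values were seen, as relatives of members.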

Additional observations from a re-analysis of the deposited data

How the results depend on the processing

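The number of members with a promoter window was 2 in place of 4 with the 5′-most start site only, a choice added after seeing the data, and 3 or 4 under the other 5 settings (500 bp, 2 kb, protein-coding transcripts only, any overlap, and without chromosomes 7, 8, 9 and X). The setting without chromosomes 7, 8, 9 and X recounted the members only and not the background. Windows at the members numbered 20 to 43 over 9 settings, against 30. They were 20 within 10 kb or inside the gene, 43 within 100 kb or inside the gene, 22 where a member had the nearest protein-coding start site, and 20 without Gata3. Under that nearest-gene rule Gata3 kept 6 of 10, Xbp1 1 of 4 and Foxa1 0 of 1. Of the word shares, the AP-1 word fell to 6.67% in the central 200 bp, against 23.3% in the whole window, a shorter sequence in which fewer matches can occur, and all windows then had 6.66%. In the same part the nuclear-receptor word was in 13.3% of member windows and 12.5% of all windows, and the GATA word in 3.33% and 6.22%. The TEAD word was there in 20% and 10.4%. More than 1 kb from any start site the AP-1 word was in 31.6% of member windows and 15.6% of all windows. No paired analysis was possible because all wells form 1 group and share 1 list. The list has 1 tumor, no replicate and no score, so a gene without a listed window cannot be called closed.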
